A study of Rattus norvegicus with 10 samples.

Results

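The genes described here encode the subunits and assembly factors of respiratory complex I, NADH:ubiquinone oxidoreductase, as measured in cultured heart muscle cells of newborn rats. They were chosen by name: every probe set of the array that carried a single gene symbol beginning with Nduf was taken, and where several probe sets shared a gene, the brightest on average across the arrays stood for it. This gave 42 genes from 46 probe sets, out of 14217 genes with a single symbol and 31099 probe sets on the array. All 42 passed the filter on low values and were among the 18393 genes and unnamed probe sets tested. The probe sets of Ndufs5 and Ndufa10 carry a second symbol each and are outside the rule. By role, the 42 genes comprise 6 of the 7 nuclear-encoded core subunits, 9 accessory subunits of the peripheral arm, 18 accessory subunits of the membrane arm, Ndufab1 in both arms, 6 assembly factors, and Ndufa4 and Ndufa4l2, which share the prefix but are not stable subunits of the complex. The seventh core gene is not analysed here.

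Complex I takes electrons from NADH in its peripheral arm, passes them along a chain of iron-sulfur clusters to ubiquinone, and couples this to proton pumping across the inner mitochondrial membrane by its membrane arm. Core subunits carry the chemistry, accessory subunits surround and stabilise them, and assembly factors help to build the enzyme without being part of it. In heart muscle, where mitochondria are dense and most ATP comes from oxidative phosphorylation, the complex is the main entry point of electrons into the respiratory chain. The subunits made from mitochondrial DNA carry other names and are not part of the set.

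Ventricular cells came from Lewis rats aged 0 to 3 days and were kept as primary cultures for 3 days after a recovery phase. Nonpulsed cultures (3 arrays, culture series 1, 2 and 3) received no stimulation. Pulsed cultures (4 arrays, series 1 to 4) were paced electrically at 1 Hz and 2 V per cm for the 3 days, and pulsed cultures with blebbistatin (3 arrays, series 2, 3 and 4) had the same pacing together with 10 µmol/L blebbistatin, an inhibitor of myosin that blocks contraction. Each array held pooled RNA from duplicate experiments. Within a group, n counts arrays from separate isolations, while arrays of different groups in the same culture series share a series of isolation and culture. No group had blebbistatin without pacing, so the drug and the absence of beating under pacing cannot be told apart. The first comparison sets paced against unpaced cultures, the second pacing with blebbistatin against the same pacing without it. Primary ventricular cultures also hold other cell types, and in RNA of a whole culture fewer cells of a type and less RNA per cell cannot be told apart. All 10 cardiomyocyte markers (Tnnt2, Myh6, Actn2 and others) were measured above the lowest array level on every array, with summed levels on the log2 scale of 15.92 to 16.32 in nonpulsed, 16.24 to 16.48 in pulsed and 16.32 to 16.36 in blebbistatin cultures. All 10 fibroblast and all 8 smooth muscle and pericyte markers were measured as well.

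The upstream sequences of 3 members are shown because these genes had the most positive or most negative fitted changes in the first 2 comparisons described below. Ndufa4l2 was the most positive gene under pacing and the most negative under added blebbistatin, Ndufaf5 was the most negative under pacing and Ndufaf4 the most positive under added blebbistatin. Each sequence is the 250 bases before the annotated start in RefSeq's rat assembly GRCr8, plus strand, and capitals mark matches to 6 short motifs of factors known to act on mitochondrial or housekeeping genes. The positions are chr7:65241919-65242168 for Ndufa4l2, chr3:147961362-147961611 for Ndufaf5 and chr5:43401545-43401794 for Ndufaf4.
Ndufa4l2: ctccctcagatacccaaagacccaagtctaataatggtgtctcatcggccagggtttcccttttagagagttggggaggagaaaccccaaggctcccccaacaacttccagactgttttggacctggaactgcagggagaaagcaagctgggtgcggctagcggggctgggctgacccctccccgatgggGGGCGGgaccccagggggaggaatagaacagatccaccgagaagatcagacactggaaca
Ndufaf5: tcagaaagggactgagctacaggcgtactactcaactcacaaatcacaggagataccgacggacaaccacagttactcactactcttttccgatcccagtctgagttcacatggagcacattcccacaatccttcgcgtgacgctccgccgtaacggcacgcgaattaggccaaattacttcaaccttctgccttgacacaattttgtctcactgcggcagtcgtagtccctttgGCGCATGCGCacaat
Ndufaf4: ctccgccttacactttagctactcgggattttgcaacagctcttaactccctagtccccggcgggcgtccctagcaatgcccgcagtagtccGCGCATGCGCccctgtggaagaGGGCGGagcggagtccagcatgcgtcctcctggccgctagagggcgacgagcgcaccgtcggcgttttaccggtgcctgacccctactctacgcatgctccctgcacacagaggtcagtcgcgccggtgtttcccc

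In Ndufaf5 the capitals are an NRF1 core (GCGCANGCG) read on both strands, bases 15 to 6 before the start, and Ndufaf4 holds the same core on both strands at bases 158 to 149 and an Sp1 box (GGGCGG) at bases 136 to 131. Ndufa4l2 holds an Sp1 box at bases 60 to 55 and none of the other motifs. RefSeq upstream sequences were matched for 40 of the 42 genes by symbol, and Ndufa8 and Ndufb9 had no entry. On either strand of these windows, the NRF1 core was found in 9 of 40 members (22.5%) against 5.53% of 27457 genes, and the ETS core CCGGAAG in 9 (22.5%) against 7.74%. Ndufa6 is listed under both, and Ndufs1, Ndufs8 and Ndufb7 are among those with the ETS core. The Sp1 box stood in 15 members (37.5%) against 32.4%, and the HIF core ACGTG in 8 (20%) against 16.9%. The ERR element AAGGTCA was in 1 member, Ndufb2 (2.5% against 3.77%), and the YY1 core AAGATGGCG in 0 members against 0.736%. The 27457 genes are all those with such a window and were not matched to the members in expression level or base content. These are matches of letters in a window and no measure of binding.

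On most arrays, most members deviated in the same direction. For each gene, the deviation of each array from the gene's own mean over all 10 arrays was taken on the log2 scale. The nonpulsed array of series 1 lay lowest, with a median deviation of -0.41 over the members and 0 of 42 genes above their own mean. The pulsed array of series 4 followed at -0.27, with 1 of 42 above. The other 8 arrays had medians from -0.025 to 0.22, and the highest were the blebbistatin arrays of series 3 (0.22, 41 of 42 above) and series 4 (0.20, 39 of 42). Both nonpulsed arrays of the other series lay near the middle, at 0.0098 in series 2 and 0.02 in series 3. These low arrays enter the fits below, so the main results are given with and without them or their series. The median deviation of all genes tested was -0.039 on the nonpulsed array of series 1 and 0.041 on the pulsed array of series 4. The nonpulsed array of series 1 also had the lowest summed cardiomyocyte markers (15.92) and the highest summed smooth muscle and pericyte markers (14.45, against 12.94 to 14.12 on the other arrays), and the highest summed fibroblast (15.90) and macrophage and leukocyte markers (12.54). Among pulsed arrays, that of series 4 had the lowest cardiomyocyte sum (16.24) and the highest smooth muscle and pericyte (14.12) and macrophage and leukocyte sums (12.28). Its fibroblast (15.85) and endothelial sums (10.22) lay below those of the pulsed array of series 1 (15.89 and 10.37). The members' median deviation on that series 1 array was 0.070. The part of cell composition in the low Nduf levels of both low arrays was not tested.

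**Figure D1:**
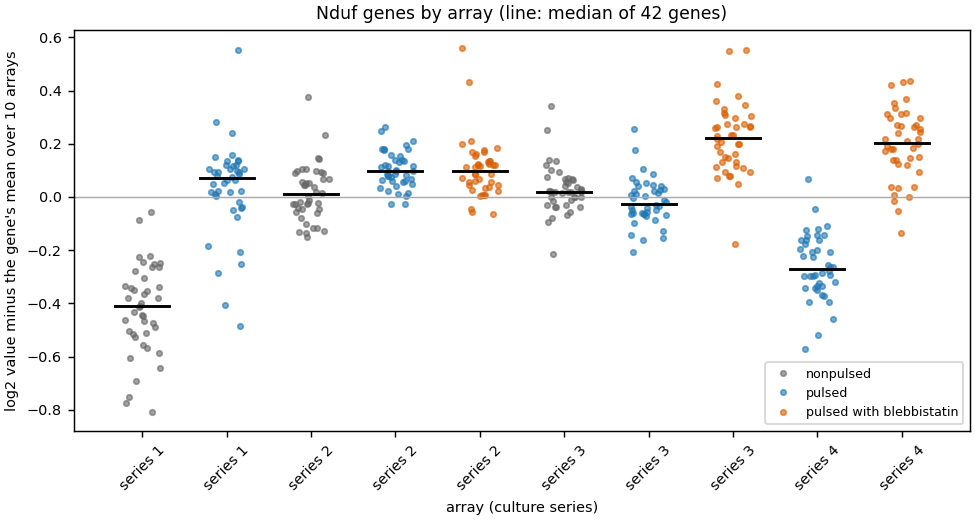
Each point is 1 of 42 Nduf genes, plotted as its log2 value on an array minus its own mean over 10 arrays (vertical axis), with the arrays ordered by culture series (horizontal axis) and coloured by group; the line is the median. The nonpulsed array of series 1 (median -0.41) and the pulsed array of series 4 (-0.27) lie below the other 8, whose medians span -0.025 to 0.22.

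The spread over the 10 arrays was smallest for Ndufa4, with an SD of 0.11 on the log2 scale, and largest for Ndufaf4, with an SD of 0.43. Ndufaf1 (0.39), Ndufs1 (0.35) and Ndufv1 (0.33) came next below Ndufaf4. A test of whether genes differed between culture series, with treatment in the same fit, called 1 member, Ndufaf1, at a limma F test adjusted p of 0.022, while 7.97% of all genes tested were called. Ndufaf1 is part of the assembly complex that helps to build the membrane arm. Its levels were 6.46 and 6.50 in series 1, 6.60 and 6.94 in series 4, 6.84, 7.02 and 7.42 in series 2, and 7.25, 7.33 and 7.54 in series 3. Series 1 lay below every array of the other series and series 2 and 3 lay above series 1 in every group they share. The call was lost without any one of 6 arrays (nonpulsed series 1 and 3, pulsed series 2 and 3, blebbistatin series 3 and 4). Ndufaf4 was called as well under quantile normalization, median centring and a trended prior.

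In pulsed against nonpulsed cultures, no member passed the test, and the members were mostly slightly higher. Of 42 genes, 39 had a positive fitted change, against 62% of all genes tested, and the median change was 0.12 on the log2 scale (all genes 0.047). The limma test with Benjamini-Hochberg adjustment called 0 of 42, as it called 0% of all genes tested, and the smallest adjusted p among members was 0.501. At an unadjusted p under 0.05, 1 member was higher (Ndufa4l2; 7.83% of all genes) and 0 were lower (1.27%). Within culture series 1, 2 and 3 the median differences were 0.45, 0.087 and -0.047 (SD of the 3 medians 0.26). Without series 1, or without either of its arrays, the fitted median was -0.021 and 11 of 42 were positive. Without both low arrays it was 0.034 with 28 of 42 positive. Under median centring of each array 30 of 42 were positive, with 44.1% of all genes, and under quantile normalization 36 of 42, with 47.6%. Cell type markers differed in the same comparison: 9 of 10 cardiomyocyte markers were positive (median 0.31, with 0.77, 0.20 and 0.032 within series 1, 2 and 3) and 7 of 8 smooth muscle and pericyte markers negative (median -0.17), with 0 past the adjusted threshold. The part of cell composition in the Nduf values was not tested.

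By role, the median fitted change under pacing was 0.18 for the 6 core subunits, 0.12 for the 9 peripheral accessory subunits, 0.086 for the 18 membrane accessory subunits and 0.0060 for the 6 assembly factors. All genes of the first 3 roles were positive, and 3 of the 6 assembly factors were negative. Ndufab1, the mitochondrial acyl carrier protein, had 0.15 (SE 0.13).

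Among the core subunits, Ndufv1 binds NADH and the flavin that first takes its electrons. Its log2 levels were 10.86, 11.50 and 11.58 in nonpulsed series 1, 2 and 3, and 11.71, 11.71, 11.57 and 11.59 in pulsed series 1 to 4. The nonpulsed array of series 1 was lowest, all 4 pulsed arrays lay close together, and the groups overlapped. The fitted change was 0.31 (SE 0.17, limma adjusted p = 0.605), and 0.064 without series 1. Ndufs1, the largest core subunit, carries several iron-sulfur clusters of the same module. It read 11.08, 11.86 and 11.96 in nonpulsed and 11.99, 12.07, 11.91 and 11.52 in pulsed cultures, with the low pulsed value in series 4. The groups overlapped, and its change of 0.28 (SE 0.20, limma adjusted p = 0.692) became -0.0051 without series 1. The remaining core genes had changes of 0.18 for Ndufs3, 0.18 for Ndufs7, 0.14 for Ndufv2 and 0.12 for Ndufs8, with SEs from 0.14 to 0.16. Ndufs7 carries the last cluster before ubiquinone, and Ndufs3 and Ndufs8 belong to the same ubiquinone-side module. Without series 1 these became -0.026, -0.0097, -0.020 and -0.042 in the same order.

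Ndufa9, an accessory subunit at the junction of the arms, read 10.94, 11.57 and 11.63 in nonpulsed and 11.64, 11.77, 11.67 and 11.48 in pulsed cultures. The pulsed arrays of series 1 to 3 lay above all nonpulsed arrays and that of series 4 did not. The change was 0.26 (SE 0.15, limma adjusted p = 0.633), and 0.061 without series 1. A second, dimmer probe set of Ndufa9 had a change of 0.47 (SE 0.24). Ndufv3, an accessory subunit with known splice forms, had probe sets that differed in sign, 0.22 (SE 0.19) for the brighter and -0.10 (SE 0.13) for the dimmer. In the membrane arm, Ndufb7, which sits on its intermembrane space side, had 0.23 (SE 0.16), and Ndufb11 had 0.22 (SE 0.13). Ndufb4 had 0.18 (SE 0.10) and Ndufa1 0.16 (SE 0.11), and both were positive in 3 of 3 series. At the low end of the arm, Ndufb10 had 0.069 (SE 0.16), Ndufc2 0.031 (SE 0.14) and Ndufb1 0.014 (SE 0.14), and all became negative without series 1, at -0.13, -0.12 and -0.11.

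Of the assembly factors, Ndufaf4 had the most positive change under pacing at 0.22 (SE 0.13), with differences of 0.50, 0.38 and -0.12 in series 1, 2 and 3. Ndufaf5, an enzyme that hydroxylates the core subunit Ndufs7, was the most negative member at -0.16 (SE 0.11, limma adjusted p = 0.688). It read 8.18, 8.78 and 8.50 in nonpulsed and 7.99, 8.58, 8.50 and 8.10 in pulsed cultures, lower in series 1 and 2 and level in series 3, and the groups overlapped. Ndufaf7, a methyltransferase acting on a core subunit, had -0.12 (SE 0.14), and Ndufaf3, a partner of Ndufaf4 in an early intermediate, had -0.037 (SE 0.15) but 0.022 without series 4. Ndufaf1 had 0.049 (SE 0.098), which was -0.023 under median centring and -0.018 under quantile normalization, and Ndufaf8 had 0.062 (SE 0.14).

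Ndufa4l2 was the only member whose pulsed and nonpulsed arrays did not overlap (1 of 42, against 6.3% of all genes higher in this way). The gene is a paralogue of Ndufa4 known to be induced by hypoxia, and Ndufa4 itself is now counted as a subunit of cytochrome c oxidase. Ndufa4l2 read 6.61, 6.57 and 6.49 in nonpulsed and 7.25, 6.70, 6.70 and 6.77 in pulsed cultures. The pulsed array of series 1 stood above the other 3, which lay just above the highest nonpulsed array. The fitted change was 0.34 (SE 0.12, 95% interval 0.054 to 0.62, 1.26-fold, limma adjusted p = 0.501), positive in 3 of 3 series, and 0.20 without series 1. Ndufa4 read 12.50, 12.73 and 12.72 in nonpulsed and 12.80, 12.87, 12.79 and 12.63 in pulsed cultures, a change of 0.15 (SE 0.093), also positive in 3 of 3 series. The pulsed array of series 4 was its only pulsed value below the nonpulsed arrays of series 2 and 3.

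**Figure D2:**
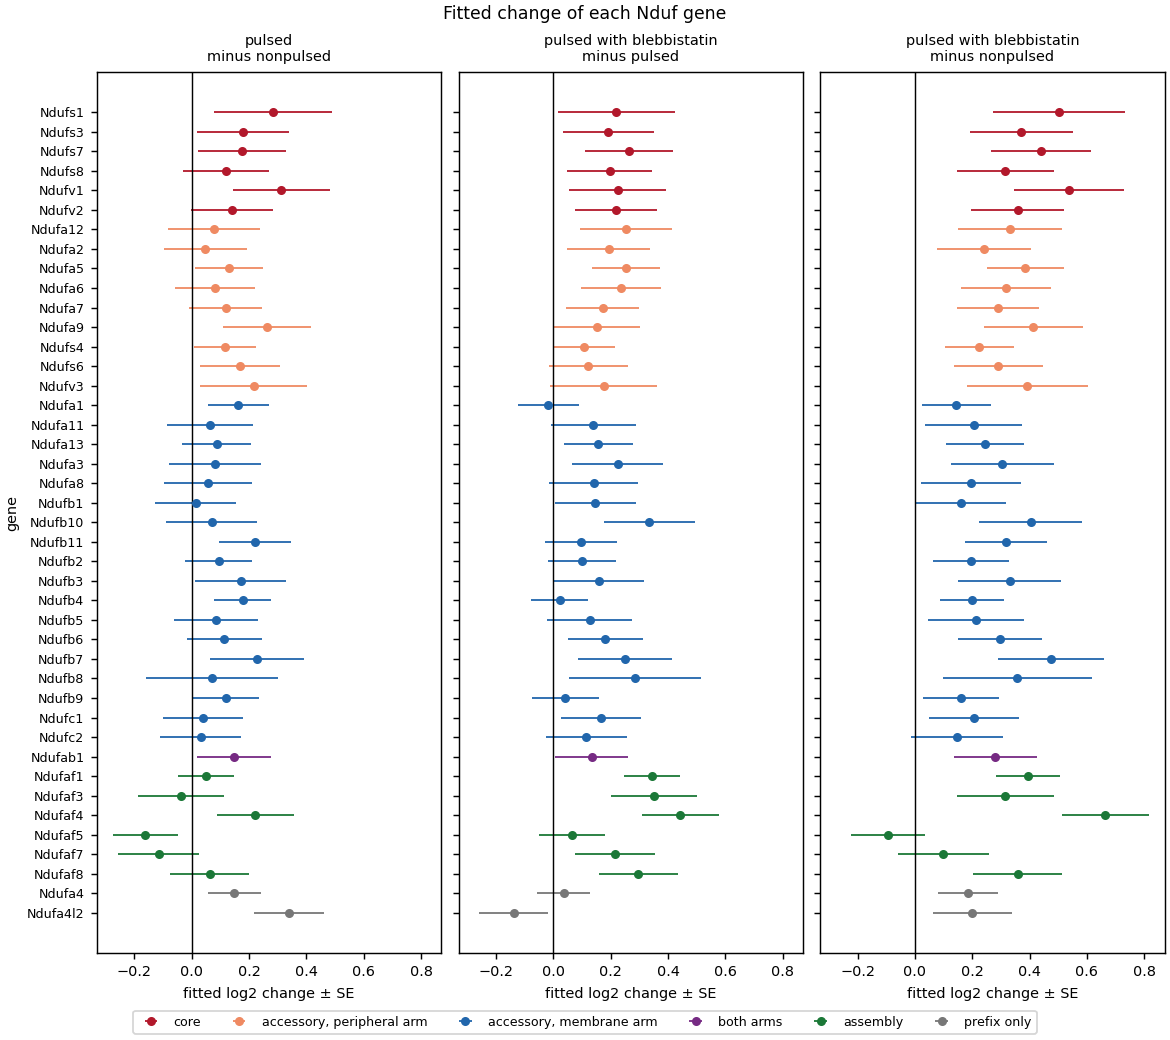
Fitted log2 change of each of 42 Nduf genes (points, with bars of ±1 SE) in 3 comparisons, one per panel, grouped and coloured by role. Most points lie to the right of 0 (39, 40 and 41 of 42 from left to right), and 0 genes passed the adjusted threshold in any panel.

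The difference between series 1 and the other series was itself tested, as an interaction in the same fit. Series 1 was picked for this because earlier results of these data showed the widest differences there, so the test is no independent support. The change under pacing was larger in series 1 by a median of 0.50 over the members, against 0.091 over all genes, and 40 of 42 members were positive, against 60.8% of all genes. The limma test called 0 of 42 members (0% of all genes), with a smallest adjusted p of 0.328, for Ndufv1. At an unadjusted p under 0.05 it gave 11 of 42 members as larger in series 1, against 8.91% of all genes, and 0 as smaller (3.2%). The largest were Ndufb8 with 1.01 (SE 0.34), Ndufs1 with 0.92 (SE 0.29), Ndufv3 with 0.81 (SE 0.28) and Ndufv1 with 0.79 (SE 0.22). The assembly factors Ndufaf1 (-0.011, SE 0.22) and Ndufaf5 (-0.031, SE 0.26) were the members below 0. The series 1 difference comes from 1 pair of arrays and was assumed to vary like the others.

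With blebbistatin added to pacing, the members were again mostly higher and 0 of 42 passed the test. Of 42 genes, 40 had a positive change relative to pulsed cultures, against 55.7% of all genes tested, with a median of 0.17 (all genes 0.024). The limma test called 0 of 42 members and 0.0163% of all genes, and the smallest adjusted p of a member was 0.308. At an unadjusted p under 0.05, 3 members were higher (Ndufaf1, Ndufaf3 and Ndufaf4; 6.23% of all genes) and 0 lower (5.6%). The blebbistatin arrays lay entirely above the pulsed arrays for 9 members, against 6.34% of all genes. Within culture series 2, 3 and 4 the medians were -0.016, 0.23 and 0.48 (SD of the 3 medians 0.25). Without series 4, or without either of its arrays, the fitted median was 0.028 and 28 of 42 were positive. Without series 1, whose pulsed array then no longer enters, the median was 0.23 and 13 members were higher at an unadjusted p under 0.05, with 9.84% of all genes. Without both low arrays named above, the median was 0.10 and 38 of 42 were positive.

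Assembly factors had the highest median of the roles, 0.32, with all 6 positive, against 0.22 for core, 0.18 for peripheral accessory and 0.14 for membrane accessory subunits. Ndufaf4, which works with Ndufaf3 on an early intermediate of the ubiquinone module, read 10.39, 10.91, 10.66 and 10.13 in pulsed series 1 to 4, and 11.21, 11.20 and 10.77 in blebbistatin series 2, 3 and 4. Each blebbistatin array was above the pulsed array of its series, and the groups overlapped only because the blebbistatin array of series 4 lay below the pulsed array of series 2. The fitted change was 0.44 (SE 0.13, 95% interval 0.13 to 0.76, 1.36-fold, limma adjusted p = 0.313), and 0.35 without series 4. Ndufaf1 read 6.50, 7.02, 7.25 and 6.60 in pulsed and 7.42, 7.54 and 6.94 in blebbistatin cultures. Its differences of 0.40, 0.30 and 0.34 in series 2, 3 and 4 were close to each other, and the overlap of the groups came from the levels of the series. The change was 0.35 (SE 0.098, 95% interval 0.12 to 0.57, 1.27-fold, limma adjusted p = 0.308), with 0.35 without series 4 and 0.34 without series 1. It and Ndufaf4 were thus positive in 3 of 3 series.

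Ndufaf3 had the same size of change, 0.35 (SE 0.15, limma adjusted p = 0.420), made of -0.019, 0.49 and 0.70 in series 2, 3 and 4, and 0.19 without series 4. Its levels were 9.70, 10.05, 9.84 and 9.45 in pulsed and 10.03, 10.33 and 10.15 in blebbistatin cultures. The pulsed arrays of series 1 and 4 were lowest, and the blebbistatin array of series 2 lay level with its pulsed partner. Ndufaf8, a partner of Ndufaf5, had 0.30 (SE 0.14), and its groups did not overlap. Ndufaf7 had 0.22 (SE 0.14) and 0.035 without series 4. Ndufaf5 had 0.066 (SE 0.11) and -0.033 without series 4.

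All 6 core genes had changes between 0.19 and 0.27 with blebbistatin. Ndufs7 read 11.47, 11.50, 11.41 and 11.24 in pulsed and 11.58, 11.71 and 11.86 in blebbistatin cultures, with no overlap, a change of 0.27 (SE 0.15, limma adjusted p = 0.544), and 0.10 without series 4. Ndufv1, with 0.23 (SE 0.17), also did not overlap, as its blebbistatin arrays read 11.80, 11.95 and 12.07 and its highest pulsed array 11.71. Ndufs1 and Ndufv2 had 0.22 each (SE 0.20 and 0.14), Ndufs8 0.20 (SE 0.15) and Ndufs3 0.19 (SE 0.16). Without series 4 these became 0.016 for Ndufs1, 0.092 for Ndufv2, 0.020 for Ndufs8 and 0.034 for Ndufs3. Ndufs8 read 11.58, 11.55, 11.56 and 11.19 in pulsed cultures, 3 nearly equal arrays and a low one in series 4, and 11.52, 11.78 and 11.76 with blebbistatin.

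In the membrane arm, Ndufb10 had the largest change, 0.33 (SE 0.16, limma adjusted p = 0.459). Its levels were 11.56, 11.55, 11.34 and 11.16 in pulsed and 11.66, 11.76 and 11.85 in blebbistatin cultures, without overlap, and its change was 0.17 without series 4. Ndufb7 had 0.25 (SE 0.16), also without overlap, while Ndufb8 had 0.29 with a wide SE of 0.23. Ndufb1 (0.15, SE 0.14) and Ndufc2 (0.11, SE 0.14) became -0.0051 and -0.031 without series 4. The lowest of the arm were Ndufb4 with 0.022 (SE 0.099), which became -0.045 without series 4, and Ndufa1 with -0.018 (SE 0.11). Ndufa1 read 12.94, 13.09, 12.77 and 12.73 in pulsed and 12.90, 12.89 and 12.84 in blebbistatin cultures, so the blebbistatin arrays lay inside the pulsed range. Its change was 0.072 without series 2 and 0.020 under quantile normalization. Among peripheral accessory subunits, Ndufa12, Ndufa5 and Ndufa6 were highest (0.25, 0.25 and 0.24, SEs 0.16, 0.12 and 0.14). Ndufv3 had 0.18 (SE 0.19) and Ndufa9 0.15 (SE 0.15), and 0.011 each without series 4. Ndufa9's dimmer probe set had 0.34 (SE 0.24).

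Ndufa4l2 had the most negative change with blebbistatin, -0.14 (SE 0.12, limma adjusted p = 0.691). It read 6.82, 6.52 and 6.56 with blebbistatin against 7.25, 6.70, 6.70 and 6.77 in pulsed cultures, lower than its pulsed partner in series 3 and 4 and higher in series 2. Without series 1, the change was -0.089. Ndufa4 had 0.036 (SE 0.093), and -0.022 without series 4.

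**Figure D3:**
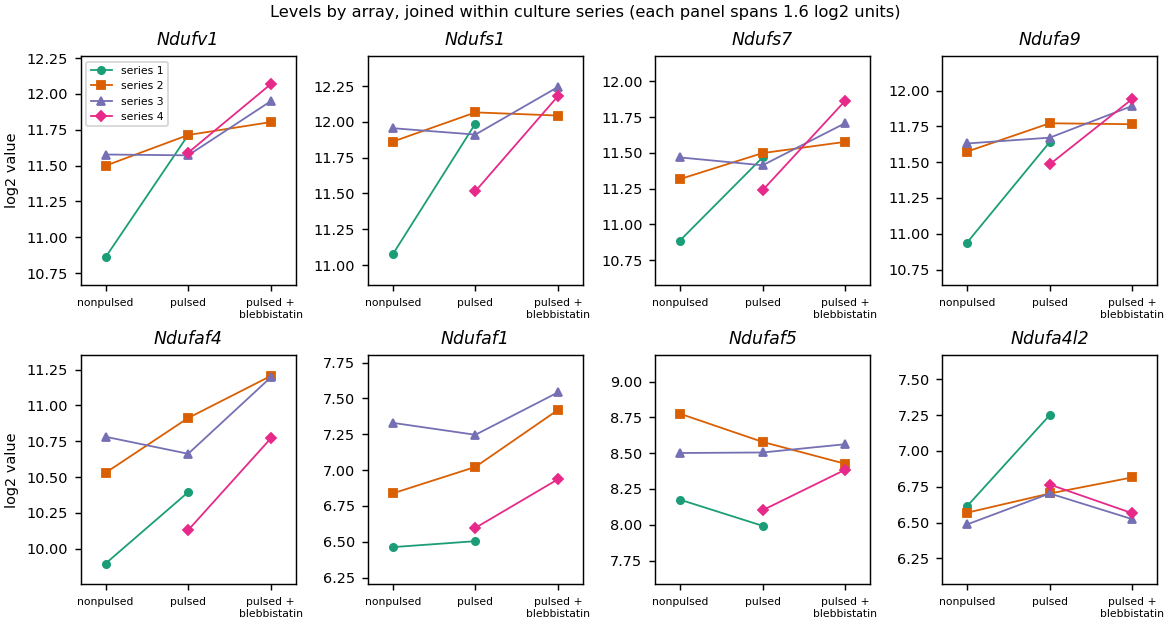
Log2 level (vertical axis, 1.6 log2 units in each panel) of 8 Nduf genes in nonpulsed, pulsed and pulsed plus blebbistatin cultures, with 1 point per array and lines joining arrays of the same culture series. Ndufaf1 and Ndufaf4 lie higher with blebbistatin than without in each of 3 series, the core genes mainly in series 3 and 4, and Ndufa4l2 is set apart in the pulsed array of series 1.

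Most markers of other cell types had negative fitted changes in the same blebbistatin cultures, and 0 of them passed the adjusted threshold. Changes against pulsed cultures were negative for all 8 smooth muscle and pericyte markers (median -0.70), 9 of 10 fibroblast markers (-0.28), all 5 endothelial (-0.30) and all 8 macrophage and leukocyte markers tested (-0.33), while 5 of 10 cardiomyocyte markers were positive (-0.016). Summed smooth muscle and pericyte markers ranged from 12.94 to 13.46 with blebbistatin and from 13.82 to 14.12 in pulsed cultures, without overlap, and summed fibroblast markers from 14.91 to 15.64 and from 15.14 to 15.89. No marker of these lists lay at the lowest array level on all arrays. The part of cell composition in the higher Nduf values was not tested. The 3′ minus 5′ difference of the beta-actin control probe sets was 0.45 on the nonpulsed array of series 1 and 0.60 to 0.77 on the others. That array lay inside the range of the others for GAPDH (0.17, others 0.060 to 0.225) and hexokinase (0.85, others 0.80 to 1.04). The part of RNA quality was not tested either.

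**Figure D4:**
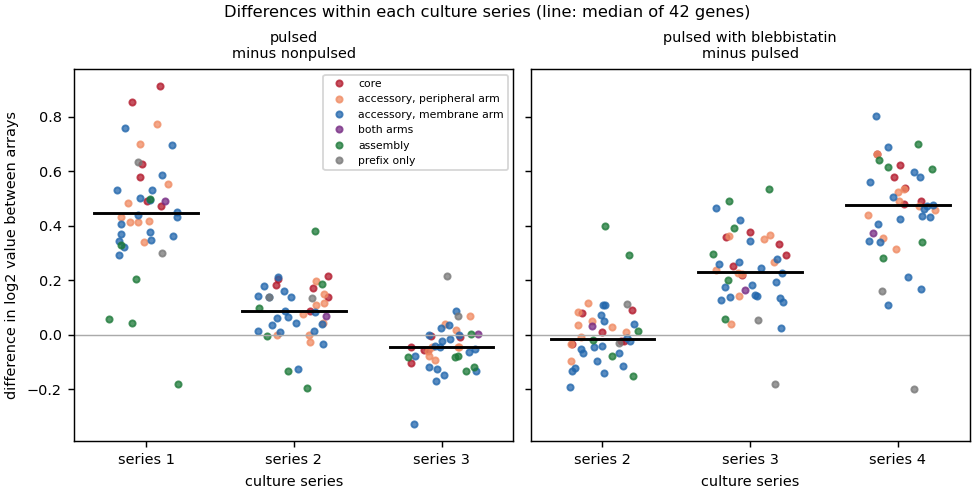
Difference in log2 value between arrays of the same culture series (vertical axis) for 42 Nduf genes (points, coloured by role), by series (horizontal axis), for pulsed minus nonpulsed and pulsed with blebbistatin minus pulsed; the line is the median. Medians run 0.45, 0.087 and -0.047 in series 1, 2 and 3 on the left, and -0.016, 0.23 and 0.48 in series 2, 3 and 4 on the right.

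In blebbistatin cultures against nonpulsed cultures, 0 of 42 members passed the test and nearly all were higher. The change was positive for 41 of 42 genes, against 61.4% of all genes, with a median of 0.30 (all genes 0.075). The limma test called 0 members and 0.343% of all genes, and the smallest adjusted p of a member was 0.088, for Ndufaf4. At an unadjusted p under 0.05, 7 members were higher (15.8% of all genes) and 0 lower (6.8%). The groups did not overlap for 23 of 42 members, all higher with blebbistatin, against 18.1% of all genes. Series 2 and 3 hold both groups, and their median differences were 0.092 and 0.18. The fitted value draws on the other series through their pulsed arrays, and it was 0.14 when only series 2 and 3 were used. Fits of each comparison on the series that hold both of its groups gave 0.16 for pulsed against nonpulsed and 0.23 for blebbistatin against pulsed, so the order of the 3 medians turned. This comparison shares its arrays with the other 2 and is not independent of them.

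Ndufaf4 had 0.66 (SE 0.15, 95% interval 0.31 to 1.02, 1.58-fold), with nonpulsed levels of 9.90, 10.53 and 10.78 and differences of 0.68 and 0.41 in series 2 and 3. Its blebbistatin array of series 4 (10.77) lay just below the highest nonpulsed array, so the groups overlapped, and the change was 0.58 without series 1. Ndufaf1 had 0.39 (SE 0.11, limma adjusted p = 0.112), with differences of 0.58 and 0.21. Among core genes, Ndufv1 had 0.54 (SE 0.19, limma adjusted p = 0.163) and Ndufs1 0.50 (SE 0.23), and the groups did not overlap for either. Ndufs7 had 0.44, Ndufs3 0.37, Ndufv2 0.36 and Ndufs8 0.32, with SEs from 0.16 to 0.18. Without series 1 the core changes ranged from 0.21 for Ndufs8 to 0.38 for Ndufv1. Ndufb7 had 0.48 (SE 0.19), Ndufa9 0.41 (SE 0.17), Ndufb10 0.40 (SE 0.18) and Ndufv3 0.39 (SE 0.21). The dimmer probe sets of Ndufa9 and Ndufv3 had 0.81 (SE 0.27) and 0.066 (SE 0.15).

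At the other end, Ndufaf5 was the member below 0, at -0.095 (SE 0.13), with differences of -0.35 and 0.061 in series 2 and 3; leaving out series 2 gave 0.074. Ndufaf7 had 0.099 (SE 0.16) and -0.015 without series 4. Ndufa1 and Ndufc2 had 0.14 and 0.15 (SE 0.12 and 0.16), Ndufb1 0.16 (SE 0.16), Ndufa4 0.18 (SE 0.11), Ndufb4 0.20 (SE 0.11) and Ndufa4l2 0.20 (SE 0.14). Ndufaf3 had 0.32 (SE 0.17). The median by role was 0.41 for core subunits, 0.34 for assembly factors, 0.32 for peripheral and 0.21 for membrane accessory subunits.

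Other genes of the same machinery were counted from fixed lists. Over all genes tested, 62% were positive under pacing, 55.7% with blebbistatin against pulsed and 61.4% with blebbistatin against nonpulsed. For the 37 tested subunits of complexes II to V, the next enzymes of the respiratory chain and the ATP synthase, 36 were positive under pacing (median 0.14), 31 with blebbistatin against pulsed (0.071) and 36 with blebbistatin against nonpulsed (0.21), and 0 passed the adjusted test in any of the 3. Within series, their medians under pacing were 0.42, 0.091 and 0.0036 in series 1, 2 and 3, and with blebbistatin -0.037, 0.12 and 0.31 in series 2, 3 and 4. On the nonpulsed array of series 1 their median deviation was -0.38, and on the pulsed array of series 4 it was -0.18. For 14 tested assembly genes of complex I with other names, 10, 13 and 13 were positive, with medians of 0.057, 0.17 and 0.23. For 17 tested genes of mitochondrial import, content and transcriptional regulation, 13, 16 and 17 were positive, with medians of 0.12, 0.14 and 0.27. None of these lists had a gene past the adjusted threshold in any comparison. At an unadjusted p under 0.05 the 3 lists in turn had 1, 1 and 3 genes higher under pacing (7.83% of all genes). They had 0, 2 and 3 with blebbistatin against pulsed (6.23%), and 3, 2 and 8 with blebbistatin against nonpulsed (15.8%). Throughout, 0 genes of these lists were lower, against 1.27%, 5.6% and 6.8% of all genes. Differences between these lists and the Nduf genes were not tested.

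RefSeq names at least 1 pseudogene or like gene for 20 of the 42 members, among them Ndufb4 with 7 pseudogenes and 4 like genes, and Ndufaf4 with 5 pseudogenes. Their probe sets may not tell such copies apart. Ndufv1, Ndufs1, Ndufs7, Ndufa9, Ndufaf1, Ndufaf3, Ndufaf5 and Ndufa4l2 have no such named copy.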

How the data were processed

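Biotinylated cRNA from Trizol-extracted total RNA was hybridised to Affymetrix rat arrays, per the labels' protocols. The deposited log2 values, 1 per probe set and array, come from the authors' use of PLIER and Affymetrix Expression Console 1.1 (both named in the submitters' processing notes). Its settings and the log base were not given in the sources used here, so base 2 was taken. Precision is limited by the number of arrays, 3, 4 and 3 per group.

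No further scaling was applied. Control probe sets (57) and those below 5.09 in mean log2 value, the lowest 25%, were left out. Changes came from limma 3.58.1 in R 4.3.3 (statmod 1.5.0), fitted on all 10 arrays with treatment and culture series as terms, Benjamini-Hochberg adjusted over 18393 genes and unnamed probe sets at 0.05. Culture series is in the fit because arrays of the same series, named in the labels, deviated together (r from 0.347 to 0.64 in 8 pairs, from -0.58 to 0.49 in 25 pairs of different series). A fold is on the log2 scale of the deposited values, in which low genes are compressed. Named in full are the core genes, Ndufa4, Ndufa4l2, the 4 most positive and 4 most negative members per comparison, members called between series, and members whose probe sets differ in sign. Alternatives covered scaling, the filter, the probe set, the prior, the arrays fitted, the series term, and leaving out arrays or series; the one without both low arrays was chosen after seeing the data. The fits were run on simulated data with planted changes of 1 and 2 log2 units. These are larger than any member's fitted change between groups, so the run does not show whether changes of the members' size could be called. Upstream sequences are RefSeq's, 1 start per gene. The members, lists, motifs and the series 1 interaction were chosen with earlier results of these data known. Protein sequences are not used here.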

Additional observations from a re-analysis of the deposited data

Results flagged for a closer look

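Of 22 values examined in the pulsed group of 4 arrays (the level of each gene named in full and the members' median deviation), 2 had an array far from the other 3 by Dixon's criterion, which chance alone exceeds in about 1 in 20 groups. Ndufs8 read 11.19 on the pulsed array of series 4, with the other 3 pulsed arrays between 11.55 and 11.58. Ndufa4l2 read 7.25 on the pulsed array of series 1, with the others between 6.70 and 6.77. Without series 1, the change of Ndufa4l2 under pacing was 0.20.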

How the results depend on the processing

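The number of members called stayed at 0 in the 3 comparisons and in the series 1 interaction under every alternative run; the interaction could not be fitted without a series 1 array. The members called between culture series numbered 2 under quantile normalization, median centring and a trended and robust prior, and 0 to 1 when single arrays were left out. The median change under pacing turned to -0.021 without series 1 (-0.021 to 0.18 when single arrays were left out), since that series holds the largest differences. The median of blebbistatin against nonpulsed moved to 0.14 with the 2 groups alone, with the series that hold both, and without both low arrays. These settings give the same estimate by construction, since each leaves only the differences within series 2 and 3. The reported fit also draws on series 1 and 4 through their pulsed arrays. The members' median moved to 0.22 under median centring, and that of all genes tested moved from 0.075 to -0.0086. Centring subtracts the same value from every gene of an array, so it shifts every gene's change in a comparison equally. The members' median was 0.19, 0.41, 0.37 and 0.21 without series 1, 2, 3 and 4, and 0.19 to 0.39 when single arrays were left out. The cause of the shifts without single series or arrays was not tested. The median of blebbistatin against pulsed ranged from 0.028 to 0.29 when single arrays were left out. With no replicate block the medians were 0.089, 0.19 and 0.31, with the series as a random replicate block 0.10, 0.18 and 0.30, and neither changed a call. At an unadjusted p under 0.05, 12 members in place of 7 were higher in blebbistatin against nonpulsed with no replicate block, and 15 with the random one, with 14.7% and 18.8% of all genes (15.8% in the fit reported).

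Of the named genes' values under alternatives, 1548 kept their direction and 90 turned, none of them called. Under pacing, the turned values were -0.0025 for Ndufb1 with the random replicate block; -0.034 for Ndufaf1, -0.019 for Ndufb1 and -0.014 for Ndufc2 with no replicate block; -0.023 for Ndufaf1, -0.058 for Ndufb1, -0.0022 for Ndufb10 and -0.041 for Ndufc2 under median centring; -0.018 for Ndufaf1, -0.020 for Ndufb1 and -0.0004 for Ndufc2 under quantile normalization. They were 0.022 for Ndufaf3 with the 2 groups alone, with the series that hold both and without series 4, -0.10 for Ndufv3 with its dimmer probe set, and -0.031 for Ndufaf1 without series 2. Without series 1 they were -0.11 for Ndufb1, -0.13 for Ndufb10, -0.12 for Ndufc2, -0.0051 for Ndufs1, -0.026 for Ndufs3, -0.0097 for Ndufs7, -0.042 for Ndufs8, -0.020 for Ndufv2 and -0.039 for Ndufv3. Without both low arrays, Ndufb1 had -0.044, Ndufb10 -0.055 and Ndufc2 -0.059. Leaving out single arrays gave -0.040 to 0.13 for Ndufaf1, -0.15 to 0.046 for Ndufaf3, -0.11 to 0.076 for Ndufb1, -0.13 to 0.16 for Ndufb10, -0.12 to 0.10 for Ndufc2, -0.0051 to 0.43 for Ndufs1, -0.026 to 0.29 for Ndufs3, -0.0097 to 0.29 for Ndufs7, -0.042 to 0.20 for Ndufs8, -0.020 to 0.24 for Ndufv2 and -0.039 to 0.33 for Ndufv3.

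In blebbistatin against pulsed, Ndufa1 turned to 0.013 with the 2 groups alone, with the series that hold both and without series 1, to 0.072 without series 2 and to 0.020 under quantile normalization. Without series 4, Ndufa4 had -0.022, Ndufaf5 -0.033, Ndufb1 -0.0051, Ndufb4 -0.045 and Ndufc2 -0.031, and without both low arrays Ndufaf5 had -0.048 and Ndufb4 -0.0004. Leaving out single arrays gave -0.077 to 0.072 for Ndufa1, -0.022 to 0.076 for Ndufa4, -0.033 to 0.20 for Ndufaf5, -0.0051 to 0.29 for Ndufb1, -0.045 to 0.057 for Ndufb4 and -0.031 to 0.24 for Ndufc2. In blebbistatin against nonpulsed, Ndufaf7 had -0.042 and Ndufc2 -0.019 with the 2 groups alone, with the series that hold both and without both low arrays. Ndufaf7 had -0.015 without series 4 and -0.015 to 0.29 without single arrays, and Ndufaf5 had 0.074 without series 2 and -0.20 to 0.055 without single arrays.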
